A study of Mus musculus with 4 samples.

Results

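The sarcomere is the repeating contractile unit of striated muscle, and 44 genes that build or tend it were followed across cardiomyocyte nuclei of injured and uninjured neonatal mouse hearts. The genes encode titin and its partners, the M-band, the Z-disc, the proteins that set thin filament length, the tropomyosins, desmin, myosin chaperones, muscle kinases and titin-linked signalling proteins. Myosins, troponins and actins were left out of the list by its rule and serve for comparison. The members were taken by gene symbol alone, and all 44 were among the 22574 genes of the count matrix. They accounted for 1077016 of the 29407020 unique molecular identifiers (UMIs, counts of captured RNA molecules) over all nuclei.

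Single-nucleus RNA sequencing was made from hearts of Nrf1fl/fl mice (labelled WT here, a loxP control without Cre) and Nrf1fl/fl:aMHC-Cre mice (labelled KO), in which a Cre recombinase under the alpha myosin heavy chain promoter of cardiomyocytes deletes Nrf1. Pups on the C57BL/6 background were operated on at postnatal day 3, either by tying off the left anterior descending artery to cause myocardial infarction (MI) or with Sham surgery (thoracotomy without ligation), and the study's methods place collection 1 day later. No library stands for a single animal, since tissue beyond the ligature of 4 to 6 genotype-matched hearts went into each one. There was 1 library for each of WT-Sham, WT-MI, KO-Sham and KO-MI, so no replicate stands behind any difference, no p-value is given, and each describes the libraries compared. All groups carried the loxP alleles, and mice with the Cre but no loxP allele were not analysed here. The strain field reads C57BL/6 for WT-MI only, with another final number for each of the other libraries, and was not used.

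Titin spans from the Z-disc, where thin filaments of neighbouring sarcomeres are anchored by alpha-actinin, to the M-band, where thick filaments are crosslinked by myomesins. Capping proteins, leiomodins and nebulin family proteins set the length of the thin filament, on which tropomyosin controls the access of myosin. Several Z-disc and titin-bound proteins also travel to the nucleus, and they are known to respond to stretch and injury of the heart muscle.

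The main comparisons used CM1, the population with the most nuclei in each library by the deposited label: 1098 nuclei in WT-Sham, 1415 in WT-MI, 2619 in KO-Sham and 1308 in KO-MI. The study's methods joined CM1 with CM3, and the deposited labels name no CM3, so CM1 here is not the study's earlier CM1 alone. For each library and population the UMIs of all nuclei were added up and divided by their total, as counts in 1000000 UMIs (CPM). A log2 ratio of CPM carries its exact 95% interval in brackets, which covers counting error only. A member is called higher or lower where the ratio passed 1.5-fold and its interval excluded no change, provided that both libraries together held at least 20 UMIs of the gene. Reads in introns were counted, so levels are compared between libraries and not between genes.

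KO-Sham stood apart in quality, with a median of 2632 UMIs per CM1 nucleus against 3749 to 4043.5 in the other libraries, and a median of 8.78% of UMIs from the mitochondrial genome against 5.05% to 6.13%. Over all libraries, 9 of 8576 barcodes occurred in more than 1 library. All 8 cardiomyocyte markers had UMIs in CM1 of every library, at a summed 20827 to 28006 CPM. Among the markers of other cells in CM1, those of red blood cells summed to 2545, 3829, 1891 and 2025 CPM in WT-Sham, WT-MI, KO-Sham and KO-MI, fibroblast markers (7 of 7 with UMIs) to between 905 and 1048 CPM, and endothelial markers (7 of 7) to 449, 469, 820 and 534 CPM in that order. Most of the endothelial sum came from Fabp4 alone, at 375, 377, 717 and 448 CPM. Myeloid markers (7 of 7) were higher after MI, at 71.8 and 47.6 CPM in WT-Sham and KO-Sham against 149.7 and 99.6 CPM in WT-MI and KO-MI. Smooth muscle and pericyte markers (7 of 7) stood between 262 and 435 CPM, epicardial markers (4 of 4) between 17.3 and 34.1 CPM, atrial markers between 28.7 and 59.8 CPM, with Bmp10 at 0 UMIs in all libraries but KO-Sham, and skeletal muscle markers between 7 and 22 UMIs in all. Most of the smooth muscle and pericyte sum came from Abcc9 alone, at 185 to 368 CPM, while Myh11 had 2 to 8 UMIs per library. The targeted gene, Nfe2l1 (the gene symbol of Nrf1), stood at 61.4 CPM in WT-Sham, 44.1 in WT-MI, 53.3 in KO-Sham and 57.7 in KO-MI in CM1. Its ratio was -0.20 (-0.44 to 0.03) on the log2 scale in KO-Sham over WT-Sham and 0.39 (0.14 to 0.63) in KO-MI over WT-MI in CM1. The second value goes against the label, so KO and WT below name libraries as labelled, and which exons were deleted is not given in the sources used here.

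Promoter windows, 250 bases before to 50 after a gene's start, were on hand for 37 of the 44 members in the RefSeq-based table (54 windows, GRCm38.p6). They are shown for 2 short motifs known from muscle promoters, and no test of the shares was made. The CArG box, which serum response factor is known to bind, was found in 5 of 37 members (13.5%) and in 1.81% of all 27025 genes with a window. The MEF2 site was found in 9 of 37 members (24.3%) and in 3.70% of all genes. Both motifs were searched on both strands, and no CArG box overlapped a MEF2 site. Sites of some members that are described below follow 5′ to 3′ on the gene's strand, with the motif in capitals.
Myom1, CArG box, chr17:71019448-71019477, plus strand: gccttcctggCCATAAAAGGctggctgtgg
Fhl1, CArG box, chrX:56779571-56779600, plus strand: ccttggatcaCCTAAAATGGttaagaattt
Fhl2, CArG box, chr1:43196838-43196867, minus strand: catttagagaCCAAAAAAGGcttgcaggag
Ldb3, CArG box, chr14:34588697-34588726, minus strand: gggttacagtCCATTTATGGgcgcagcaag
Synpo2l, MEF2 site, chr14:20668444-20668473, minus strand: gaaatttgtaCTATAATTAGttctaggagt
Synpo2l, MEF2 site, chr14:20664699-20664728, minus strand: tggctcaggtTTATTTTTAGccaggcagac
Ttn, MEF2 site, chr2:76982694-76982723, minus strand: ttctgaaaggCTAAATTTAGcactgccaat
Mybpc3, MEF2 site, chr2:91118044-91118073, plus strand: tggaatttgtCTATATTTAGcaggtggcta
Synpo2, MEF2 site, chr3:123236366-123236395, minus strand: agcccggctaCTATTTATAGaataattaaa
This Fhl2 window also held a MEF2 site, another Fhl2 start had a further CArG box, and other matches included those in Nebl (CArG box) and in Speg, Alpk3 and Myom3 (MEF2 site). Whole windows are given for 3 members that were higher after MI in at least 1 genotype, to set a window with a CArG box and a window with a MEF2 site beside that of Tpm2, which had neither.
Myom1, chr17:71019307-71019606, plus strand: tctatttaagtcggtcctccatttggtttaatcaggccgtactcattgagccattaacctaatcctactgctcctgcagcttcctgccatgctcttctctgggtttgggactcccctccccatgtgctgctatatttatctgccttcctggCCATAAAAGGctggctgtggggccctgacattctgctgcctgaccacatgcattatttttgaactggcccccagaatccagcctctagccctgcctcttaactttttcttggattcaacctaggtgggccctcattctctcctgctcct
Synpo2l, chr14:20668305-20668604, minus strand: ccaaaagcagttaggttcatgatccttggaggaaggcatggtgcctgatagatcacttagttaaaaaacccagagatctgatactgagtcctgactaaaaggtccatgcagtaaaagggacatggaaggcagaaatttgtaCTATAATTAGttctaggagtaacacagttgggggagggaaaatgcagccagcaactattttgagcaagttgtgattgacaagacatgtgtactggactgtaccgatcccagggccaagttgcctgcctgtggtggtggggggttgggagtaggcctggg
Tpm2, chr4:43523505-43523804, minus strand: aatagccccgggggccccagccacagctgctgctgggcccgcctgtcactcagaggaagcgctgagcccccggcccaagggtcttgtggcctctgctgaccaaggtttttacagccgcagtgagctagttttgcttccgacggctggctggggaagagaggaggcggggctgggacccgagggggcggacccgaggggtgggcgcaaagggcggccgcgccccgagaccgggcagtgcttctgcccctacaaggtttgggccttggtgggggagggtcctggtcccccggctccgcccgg
The Myom1 window lies at a start inside the annotated gene. Other motifs were nearer to their share among all genes. The MCAT motif (CATTCC) was in 27.0% of members and 16.6% of all genes, the GATA motif (AGATAA) in 16.2% and 12.7%, and the AP-1 motif (TGANTCA) in 10.8% and 8.97%. The core of the antioxidant response element (TGACNNNGC), the class of site that Nrf1 is known to bind, was in 24.3% of members and 14.0% of all genes, and it can overlap the AP-1 motif. Members had more windows per gene (54 for 37) than all genes (32851 for 27025), which raises their share by gene. By window, the antioxidant core was in 16.7% of member windows and 12.4% of all windows. The MCAT motif was in 22.2% and 14.7%, the GATA motif in 13.0% and 11.2%, and the AP-1 motif in 9.26% and 7.81%. The CArG box was in 13.0% and 1.63%, and the MEF2 site in 18.5% and 3.19%. A match is a run of letters and not a shown binding site.

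The first comparison asked how the members differed after MI within each genotype. In CM1 of the WT libraries, 7 of 41 members with enough UMIs were higher after MI (Myom1, Actn1, Pdlim7, Synpo2l, Tpm2, Des and Ankrd23) and 3 were lower (Myom2, Neb and Mylk3). Of all 12738 genes, 7.46% were called higher and 10.8% lower in that pair. In the KO libraries, 8 of 42 members were higher (Myom1, Actn1, Pdlim3, Pdlim5, Pdlim7, Tpm2, Fhl1 and Ankrd23) and 2 were lower (Myom2 and Neb), beside 9.5% higher and 9.51% lower of 13152 genes. The median log2 ratio of the members was 0.27 above that of all genes in WT and 0.19 above it in KO. The MI comparisons of WT and KO share no library. Myom1, Actn1, Pdlim7, Tpm2 and Ankrd23 were higher in both, 5 of 41 members beside 4.77% of all genes, and Myom2 and Neb were lower in both, 2 of 41 beside 4.27%. In all, 15 members were called in at least 1 of the 4 comparisons of CM1, and 29 were called in none, among them Myom3 and Ankrd2, which had too few UMIs for any. The members' share of all UMIs in CM1 was 3.75% in WT-Sham, 4.09% in WT-MI, 3.40% in KO-Sham and 4.01% in KO-MI.

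**Figure D1:**
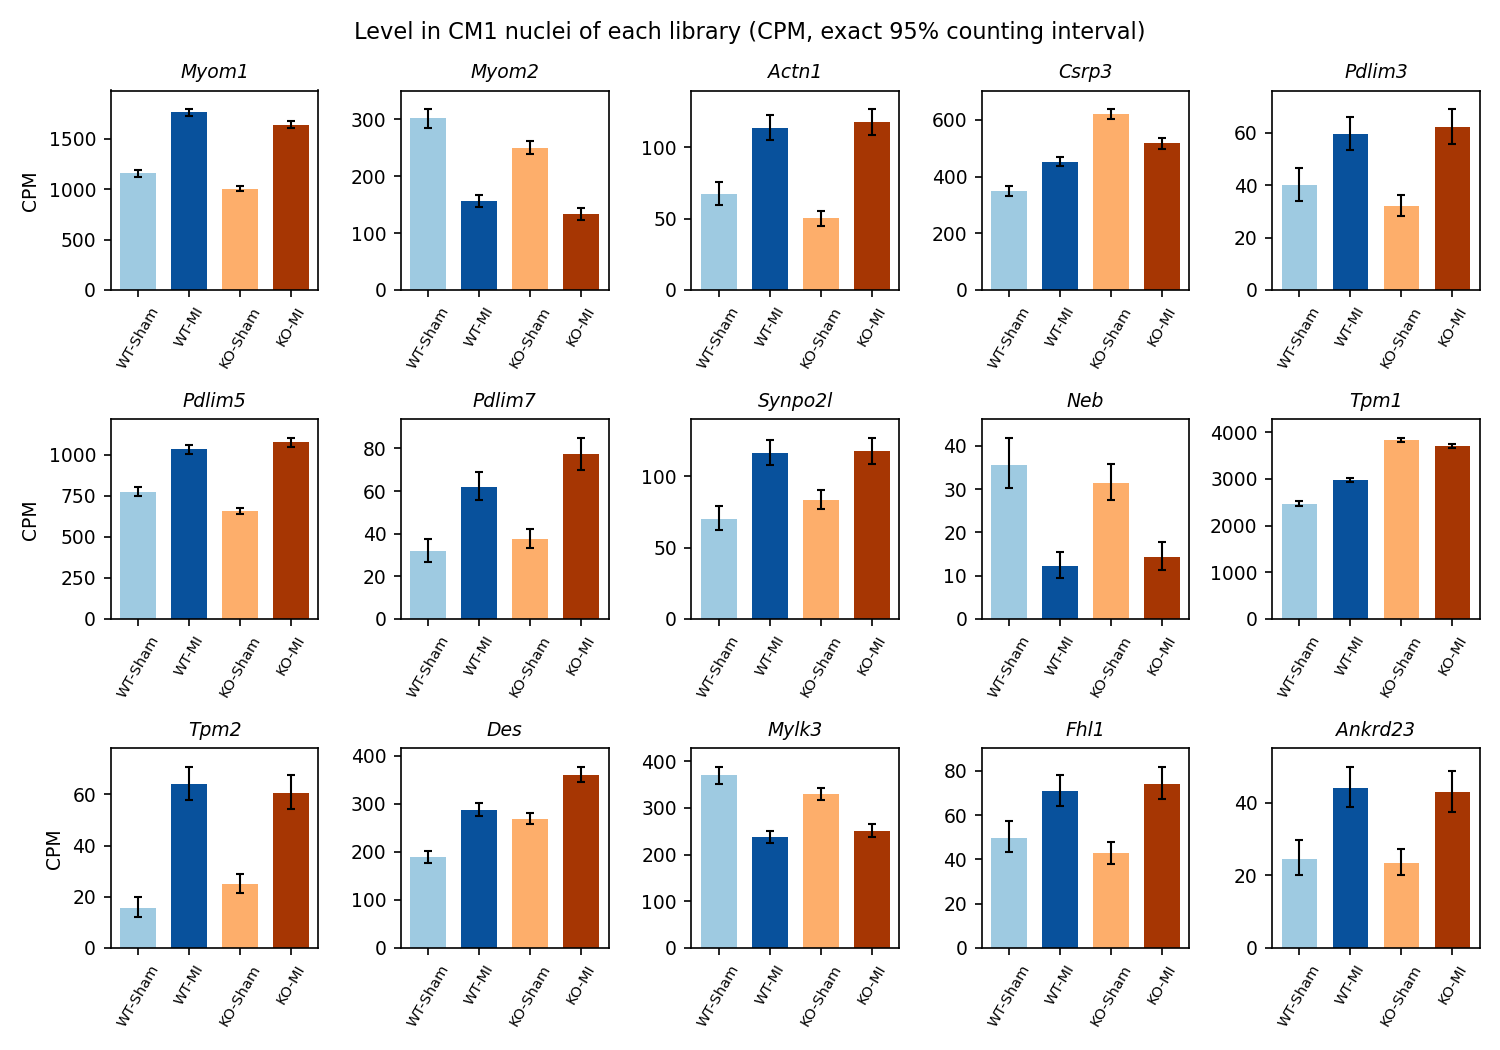
Level of the 15 members called in at least 1 comparison of CM1 nuclei, in CPM, with 1 bar per library (WT-Sham, WT-MI, KO-Sham, KO-MI) and the exact 95% counting interval. Tpm2, Actn1, Pdlim7, Ankrd23 and Myom1 stand higher in both MI libraries than in both Sham libraries, Myom2 and Neb lower, and Csrp3 is highest in KO-Sham.

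Among the tropomyosins, Tpm2 had the highest ratio of MI over Sham of all tested members in CM1 of both genotypes. Tpm2, beta-tropomyosin (chr4:43514711-43523765), stood at 15.7 (12.1 to 19.96) CPM in WT-Sham, 64.0 (57.6 to 70.8) in WT-MI, 24.9 (21.5 to 28.8) in KO-Sham and 60.5 (54.1 to 67.5) in KO-MI. Both MI libraries were well above both Sham libraries, with no overlap of intervals. The log2 ratio of MI over Sham was 2.03 (1.65 to 2.43) in WT and 1.28 (1.01 to 1.55) in KO, from 65 and 371 UMIs and from 183 and 322 UMIs. Tpm1, alpha-tropomyosin, the main form of the heart (chr9:67022590-67049406), had the most UMIs of its group and stood at 2471 CPM in WT-Sham, 2981 in WT-MI, 3838 in KO-Sham and 3704 in KO-MI. Both libraries labelled KO were above both labelled WT, and the ratio was 0.27 (0.24 to 0.31) in WT and -0.05 (-0.08 to -0.02) in KO. Tpm3 and Tpm4, forms also found outside muscle, were under the 1.5-fold limit in CM1, at 0.29 (0.05 to 0.53) and 0.55 (0.31 to 0.80) in WT and 0.38 (0.17 to 0.59) and 0.57 (0.37 to 0.77) in KO.

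In the titin and M-band group the myomesins moved apart. Myom1, myomesin-1, a crosslinker of thick filaments in every striated muscle (chr17:71002633-71126856), stood at 1156 CPM in WT-Sham, 1765 in WT-MI, 1006 in KO-Sham and 1641 in KO-MI. Its log2 ratio of MI over Sham was 0.61 (0.56 to 0.66) in WT and 0.71 (0.66 to 0.75) in KO, and the libraries of each surgery did not overlap. Myom2, myomesin-2, which is typical of fast and mature muscle (chr8:15057653-15133541), stood at 302 CPM in WT-Sham, 157 in WT-MI, 250.4 in KO-Sham and 133 in KO-MI. It was lower after MI, at -0.95 (-1.07 to -0.82) in WT and -0.91 (-1.04 to -0.78) in KO. Titin itself, Ttn (chr2:76703980-76982547), stood at 10977 CPM in WT-Sham, 12775 in WT-MI, 9203 in KO-Sham and 11542 in KO-MI, a log2 ratio of 0.22 (0.20 to 0.24) in WT and 0.33 (0.31 to 0.34) in KO, under the fold limit with narrow intervals. Mybpc3, the cardiac myosin binding protein C, was at 0.17 (0.11 to 0.24) and 0.0026 (-0.06 to 0.06). Myom3 had 6 to 10 UMIs per library and no ratio is read from it.

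In the Z-disc group, Actn1 was called and the muscle form Actn2 was not. Actn1, the alpha-actinin of non-muscle cells and of adhesion sites (chr12:80167547-80260371), stood at 67.4 (59.8 to 75.8) CPM in WT-Sham, 113 (105 to 122) in WT-MI, 50.2 (45.2 to 55.6) in KO-Sham and 118 (109 to 127) in KO-MI. Its log2 ratio was 0.75 (0.55 to 0.96) in WT and 1.23 (1.04 to 1.42) in KO. Actn2, the alpha-actinin that crosslinks thin filaments at the Z-disc, stood at 1272 CPM in WT-Sham, 1522 in WT-MI, 1314 in KO-Sham and 1634 in KO-MI, with ratios of 0.26 (0.21 to 0.31) and 0.31 (0.27 to 0.36). Palld, palladin, an actin crosslinker with the most UMIs of the group, stood at 5205 CPM in WT-Sham, 4762 in WT-MI, 4165 in KO-Sham and 4636 in KO-MI, with ratios of -0.13 (-0.15 to -0.10) and 0.15 (0.13 to 0.18). Csrp3, the muscle LIM protein (chr7:48830398-48848033), stood at 349 CPM in WT-Sham, 453 in WT-MI, 622 in KO-Sham and 517 in KO-MI. WT-Sham was the lowest and KO-Sham the highest, and the ratio of MI over Sham was 0.38 (0.29 to 0.47) in WT and -0.27 (-0.33 to -0.20) in KO. Myoz2, Tcap, Ldb3, Mypn and Nexn ranged from -0.21 to 0.33 in WT and from -0.16 to 0.56 in KO, and none was called. Myot, myotilin, had 3 to 14 UMIs per library and was tested only in KO, at -0.54 (-2.09 to 0.87).

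The PDZ-LIM and synaptopodin-2 genes, whose proteins sit at the Z-disc beside alpha-actinin, held 2 of 6 members called higher after MI in WT (Pdlim7 and Synpo2l) and 3 of 6 in KO (Pdlim3, Pdlim5 and Pdlim7), with none called lower. Of all genes, 7.46% were called higher in WT and 9.5% in KO, and 10.8% and 9.51% lower. The group median was 0.54 in WT and 0.60 in KO, beside -0.07 and 0.03 for all genes. Pdlim7, also called enigma (chr13:55495795-55513676), stood at 31.8 CPM in WT-Sham, 62.1 in WT-MI, 37.5 in KO-Sham and 77.2 in KO-MI. It was higher after MI by 0.97 (0.67 to 1.26) in WT and 1.04 (0.82 to 1.27) in KO. Pdlim3, actinin-associated LIM protein (chr8:45885461-45919548), stood at 40.0 CPM in WT-Sham, 59.5 in WT-MI, 32.0 in KO-Sham and 62.2 in KO-MI, with ratios of 0.57 (0.30 to 0.85) and 0.96 (0.71 to 1.20), of which the KO value passed the fold limit and the WT value lay just under it. Pdlim5, enigma homolog (chr3:142239590-142395696), stood at 773 CPM in WT-Sham, 1031 in WT-MI, 659 in KO-Sham and 1075 in KO-MI, with ratios of 0.42 (0.35 to 0.48) and 0.71 (0.65 to 0.76). Synpo2l, a partner of alpha-actinin in heart and skeletal muscle (chr14:20658946-20668354), stood at 70.3 CPM in WT-Sham, 116 in WT-MI, 83.6 in KO-Sham and 118 in KO-MI, with ratios of 0.73 (0.53 to 0.93) and 0.49 (0.33 to 0.66). For these 4 genes and Pdlim1 both MI libraries were above both Sham libraries, as for 26.7% of all genes. Pdlim1 had ratios of 0.50 (0.28 to 0.72) and 0.28 (0.09 to 0.47). Synpo2 went the other way, at -0.36 (-0.47 to -0.26) and -0.29 (-0.38 to -0.19), and was not called in CM1.

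Among the genes of thin filament length, Neb differed most. Neb, nebulin, the long ruler protein of skeletal thin filaments that the heart holds in small amounts (chr2:52136647-52378474), stood at 35.7 (30.1 to 41.9) CPM in WT-Sham, 12.2 (9.56 to 15.4) in WT-MI, 31.5 (27.6 to 35.8) in KO-Sham and 14.3 (11.3 to 17.9) in KO-MI. It was lower after MI, at -1.54 (-1.97 to -1.12) in WT and -1.14 (-1.53 to -0.76) in KO, from 148 and 71 UMIs and from 231 and 76 UMIs. Markers of skeletal muscle were at or near 0 in all libraries, at most 22 UMIs over Myh1, Tnnt3, Tnni2 and Actn3 together. Fhod3, a formin that assembles cardiac thin filaments, had the most UMIs of the group and stood at 2448 CPM in WT-Sham, 2071 in WT-MI, 1992 in KO-Sham and 2061 in KO-MI, with ratios of -0.24 (-0.28 to -0.20) and 0.05 (0.01 to 0.09). Nebl, Lmod2, Lmod3, Tmod1, Capzb and Cap2 ranged from -0.20 to 0.20 in WT and from -0.03 to 0.20 in KO.

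Desmin, the intermediate filament that ties Z-discs together, was higher after MI in WT. Des (chr1:75360329-75368579) stood at 189 CPM in WT-Sham, 287 in WT-MI, 269 in KO-Sham and 361 in KO-MI, with log2 ratios of MI over Sham of 0.61 (0.48 to 0.73) in WT and 0.42 (0.33 to 0.51) in KO, of which the second was under the fold limit. The myosin chaperones and methyltransferases Smyd1, Smyd2 and Unc45b were not called. Smyd1, which is needed for myosin assembly, had the most UMIs of these 3 and stood at 262 CPM in WT-Sham, 200.01 in WT-MI, 209 in KO-Sham and 209 in KO-MI, with ratios of -0.39 (-0.51 to -0.27) and -0.002 (-0.11 to 0.11). Smyd2 and Unc45b ranged from -0.06 to -0.02 in WT and from -0.10 to 0.11 in KO.

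Of the kinases, Mylk3, the cardiac myosin light chain kinase (chr8:85324303-85386345), stood at 369.5 CPM in WT-Sham, 238 in WT-MI, 329 in KO-Sham and 251 in KO-MI. Both MI libraries were below both Sham libraries, with ratios of -0.64 (-0.74 to -0.53) in WT, which was called, and -0.39 (-0.49 to -0.30) in KO, which was not. The WT call was lost when ratios were centred on the median gene. Speg and Alpk3 ranged from -0.02 to 0.09 in WT and from 0.26 to 0.31 in KO.

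The titin-linked signalling genes were higher after MI where they were called. Ankrd23, an ankyrin repeat protein that binds the elastic part of titin (chr1:36530188-36536883), stood at 24.6 CPM in WT-Sham, 44.1 in WT-MI, 23.4 in KO-Sham and 42.8 in KO-MI, with ratios of 0.85 (0.51 to 1.19) in WT and 0.87 (0.58 to 1.16) in KO. Fhl1, a LIM protein that binds titin (chrX:56731787-56793346), stood at 49.9 CPM in WT-Sham, 70.9 in WT-MI, 42.7 in KO-Sham and 74.2 in KO-MI, with ratios of 0.51 (0.26 to 0.76) and 0.80 (0.58 to 1.02), of which the KO value was called. Fhl2, its cardiac relative, had the most UMIs of the group and stood at 4404 CPM in WT-Sham, 4975 in WT-MI, 3615 in KO-Sham and 4764 in KO-MI, with ratios of 0.18 (0.15 to 0.20) and 0.40 (0.37 to 0.42). Ankrd2 had 1 to 6 UMIs per library.

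**Figure D2:**
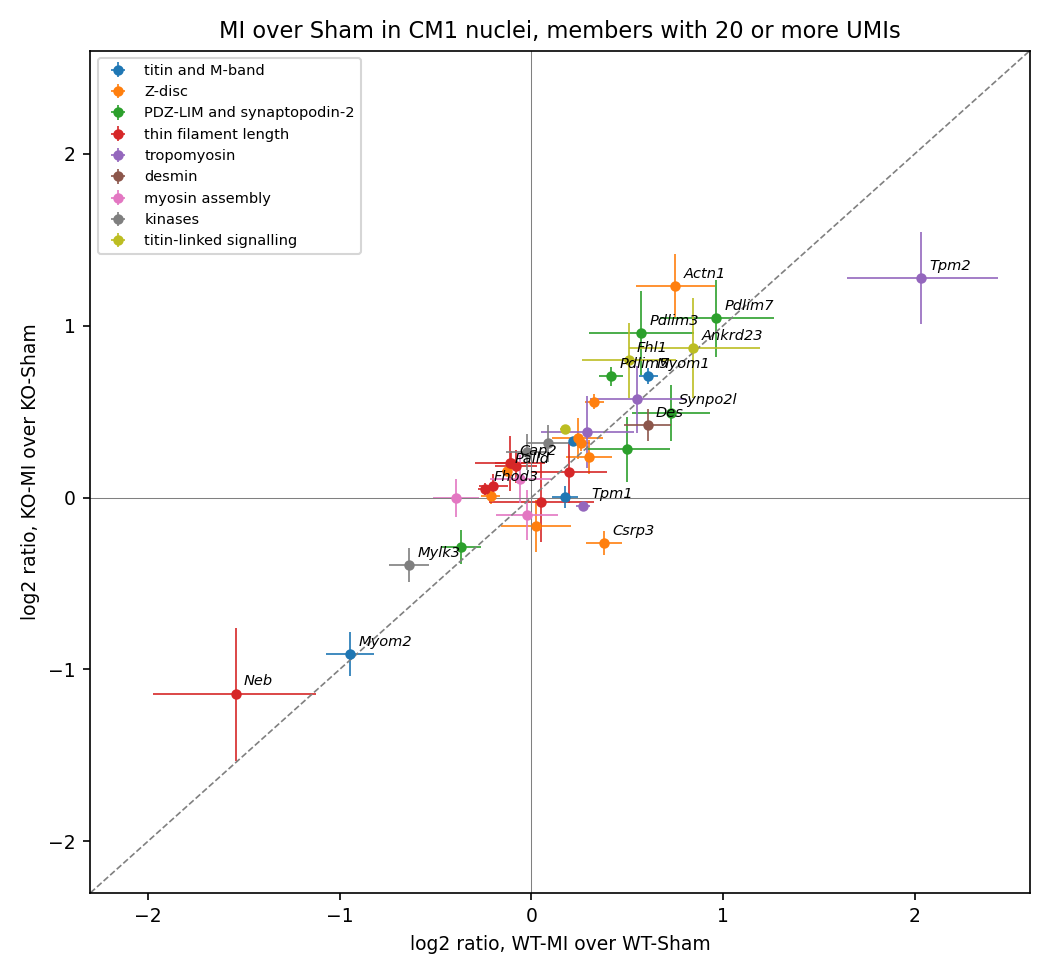
Log2 ratio of MI over Sham in CM1 nuclei for the 41 members with 20 or more UMIs in both comparisons, with WT on the x axis, KO on the y axis, exact 95% counting intervals as bars and the dashed line where both are equal. Tpm2 is farthest right, Neb and Myom2 are low in both, and Csrp3 and Tpm1 lie below the line at 0 on the KO axis and above 0 on the WT axis.

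The WT and KO ratios of MI over Sham differed by under 0.5 on the log2 scale for 39 of the 41 members with values in both. That share was not counted over all genes, so it is not read as particular to the members. The sign was the same for 28 of 41 (68.3%), beside 69.6% of all 12583 genes. For 5 of 41 the signs were opposite with both intervals excluding 0, beside 1.43% of all genes. These 5 had 10764 to 104452 UMIs over CM1. Intervals are narrower for genes with more UMIs, so this share also depends on a gene's UMIs. Csrp3 (17.6 kb) and Tpm1 (26.8 kb) were above 0 in WT alone. Palld (391.3 kb), Cap2 (148.4 kb) and Fhod3 (424.9 kb) were above 0 in KO alone. The part of gene length and of the quality of KO-Sham in these signs was not tested. Another scaling (TMM) moved the median of all genes from -0.07 to 0.002 in WT and from 0.03 to -0.03 in KO. Such a shift takes Fhod3 in KO below 0 and the interval of Cap2 in WT across 0. Counted over libraries, 22 of 43 members had both MI libraries above both Sham libraries, beside 26.7% of all genes, and 6 members, Myom2, Synpo2, Neb, Smyd1, Smyd2 and Mylk3, had both below, beside 28.8% of all genes. Besides the called members, the 22 included Ttn, Mybpc3, Actn2, Myoz2, Ldb3, Mypn, Pdlim1, Capzb, Tpm3, Tpm4, Alpk3 and Fhl2. These counts go by CPM alone, without counting error. The interval of MI over Sham included 0 for Smyd2 in both genotypes, for Smyd1, Mybpc3 and Capzb in KO, and for Alpk3 in WT. No call in CM1 rested on a few nuclei: with the 10 nuclei of each library that held the most UMIs of the gene left out, all 23 calls of the 4 comparisons were kept. In the 549 to 1310 CM1 nuclei per library with the lower shares of UMIs from markers of other cell types, all 10 calls of each MI comparison were kept.

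Other sarcomere genes were set beside the members. Of the 11 myosins, troponins and actins, 2 were higher after MI in WT and 1 was lower, and 2 were higher and 5 lower in KO. Acta1, the skeletal actin that is re-expressed in stressed heart muscle, was higher by 3.28 (2.81 to 3.80) in WT and 2.42 (2.16 to 2.69) in KO, and Myh7, the slow myosin heavy chain, by 0.70 (0.62 to 0.79) and 1.52 (1.45 to 1.59). Tnni1, the fetal troponin I, was lower, at -0.75 (-0.81 to -0.68) and -0.75 (-0.80 to -0.70). Myl2, Myl3, Tnnt2 and Tnni3 were called lower in KO alone but were lower in WT too, under the fold limit. From WT-Sham to WT-MI, Myl2 went from 3145 to 2378 CPM and Myl3 from 2934 to 2033. Tnnt2 went from 4284 to 2890 CPM and Tnni3 from 1204 to 914. Whether the genotypes differed was not tested. Of 28 other sarcomere-linked and protein quality genes with enough UMIs, 11 were higher in WT, 8 in KO, and none was lower in either. Ankrd1, the relative of Ankrd23 that is known as an injury gene of the heart, was higher by 3.27 (3.15 to 3.39) and 3.05 (2.97 to 3.13). Xirp2, an actin-binding repeat protein, was higher by 1.94 (1.62 to 2.27) and 1.87 (1.58 to 2.17), Actn4, the other non-muscle alpha-actinin, by 1.11 (0.96 to 1.25) and 1.36 (1.24 to 1.49), and Flnc, the muscle filamin, by 0.95 (0.72 to 1.18) and 0.69 (0.51 to 0.87).

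The MI comparison was then repeated in CM5, the population described by the study as responding to injury, with 89 and 339 nuclei in WT-Sham and WT-MI and 234 and 355 in KO-Sham and KO-MI. In WT, 11 of 41 members were higher and 8 lower, beside 10.5% and 14.1% of all genes, and in KO 9 were higher and 7 lower, beside 15.9% and 13.3%. Actn1, Pdlim5, Pdlim7, Synpo2l, Tpm2, Tpm3, Tpm4, Des and Fhl1 were higher in both, and Mybpc3, Synpo2, Lmod3, Smyd1, Mylk3 and Fhl2 were lower in both. The share of all genes called in both was not counted in CM5, so nothing particular to the members is read from these lists. Actn1 stood at 52.3 CPM in WT-Sham, 625 in WT-MI, 78.7 in KO-Sham and 609.7 in KO-MI in CM5, ratios of 3.58 (2.89 to 4.36) and 2.95 (2.54 to 3.40). Fhl1 stood at 36.9 CPM in WT-Sham, 334 in WT-MI, 45.6 in KO-Sham and 272 in KO-MI, ratios of 3.18 (2.36 to 4.14) and 2.58 (2.03 to 3.17). Both genes were low in the Sham libraries and several times as high after MI.

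Pdlim7 in CM5 stood at 33.8 CPM in WT-Sham, 189.5 in WT-MI, 50.4 in KO-Sham and 220.1 in KO-MI, with ratios of 2.49 (1.62 to 3.51) and 2.13 (1.60 to 2.70), and Tpm2 at 21.5 CPM in WT-Sham, 96.8 in WT-MI, 37.8 in KO-Sham and 115 in KO-MI, with ratios of 2.17 (1.09 to 3.51) and 1.60 (0.98 to 2.29). On the lower side, Synpo2, which bundles actin at the Z-disc, stood at 203 CPM in WT-Sham, 56.2 in WT-MI, 189 in KO-Sham and 69.1 in KO-MI, with ratios of -1.85 (-2.34 to -1.36) and -1.45 (-1.85 to -1.05). Mylk3 stood at 279.8 CPM in WT-Sham, 109 in WT-MI, 244 in KO-Sham and 94.7 in KO-MI, with ratios of -1.36 (-1.74 to -0.97) and -1.36 (-1.71 to -1.02). The kinase was thus lower after MI in CM5 of both genotypes. Smyd1 had ratios of -1.30 (-1.69 to -0.91) and -0.93 (-1.25 to -0.61), Mybpc3 of -1.01 (-1.21 to -0.81) and -0.88 (-1.06 to -0.69), and Fhl2 of -0.76 (-0.86 to -0.66) and -0.97 (-1.06 to -0.88). Pdlim3 and Lmod2, a leiomodin that lengthens thin filaments, were called higher in WT alone, and Palld and Nebl lower in WT alone, while Myom2 was called lower in KO alone, at -1.18 (-1.49 to -0.86) against -0.50 (-0.90 to -0.09) in WT. Whether these differed between genotypes was not tested. The nuclei were sorted into CM1 and CM5 on genes that include the members, and the part of this sorting in the differences within CM5 was not tested.

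**Figure D3:**
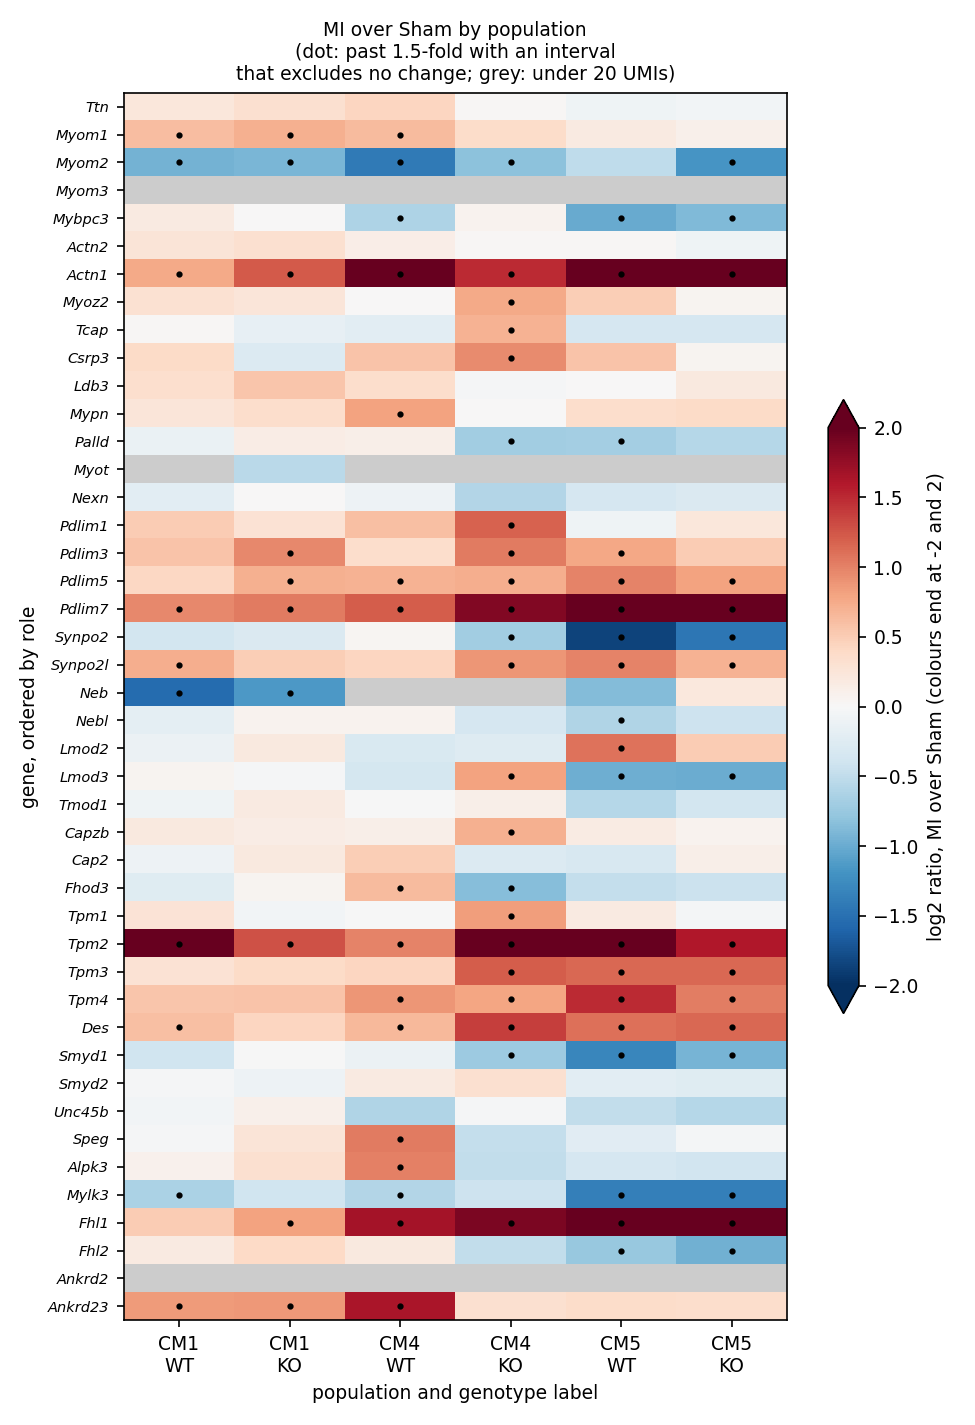
Log2 ratio of MI over Sham for the 44 members (rows, ordered by role) in CM1, CM4 and CM5 nuclei of the WT and KO libraries (columns), with a dot where a member was called and grey where it had under 20 UMIs. Actn1, Pdlim7, Tpm2 and Fhl1 are red in all 6 columns, and Synpo2, Smyd1, Mylk3 and Fhl2 are blue with dots in CM5 of both genotypes.

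In CM4, the population that the study links to the cell cycle after injury, nuclei were fewer and shallower (118 to 351 nuclei and a median of 1715.5 to 2394 UMIs), and their median mitochondrial share was 9.47% to 14.59%. In WT, 13 of 40 members were higher after MI and 3 lower, beside 15.5% and 8.6% of all genes, and in KO 17 were higher and 5 lower, beside 9.5% and 8.47%. Actn1, Pdlim5, Pdlim7, Tpm2, Tpm4, Des and Fhl1 were higher in both genotypes and Myom2 was lower in both. The share of all genes called in both was not counted in CM4 either. Myom1, Mypn, Fhod3, Speg, Alpk3 and Ankrd23 were called higher in WT alone and Mybpc3 and Mylk3 lower. Myoz2, Tcap, Csrp3, Pdlim1, Pdlim3, Synpo2l, Lmod3, Capzb, Tpm1 and Tpm3 were called higher in KO alone and Palld, Synpo2, Fhod3 and Smyd1 lower, beside 1199 CPM of atrial markers in CM4 of KO-MI and 69.8 CPM in CM4 of KO-Sham, whose part was not tested. Des stood at 614 CPM in WT-Sham, 961 in WT-MI, 474 in KO-Sham and 1239.6 in KO-MI, with ratios of 0.65 (0.41 to 0.88) and 1.39 (1.18 to 1.60). Fhl1 stood at 60.7 CPM in WT-Sham, 192 in WT-MI, 42.4 in KO-Sham and 157 in KO-MI, with ratios of 1.66 (0.99 to 2.39) and 1.89 (1.23 to 2.57). Myom2 stood at 324 CPM in WT-Sham, 121 in WT-MI, 216 in KO-Sham and 122 in KO-MI, with ratios of -1.42 (-1.92 to -0.94) and -0.82 (-1.35 to -0.32). Fhod3 was called in opposite ways, at 0.63 (0.43 to 0.83) in WT and -0.86 (-1.08 to -0.65) in KO, and the difference was not tested. Its levels were 834 CPM in WT-Sham, 1291 in WT-MI, 1203 in KO-Sham and 663 in KO-MI. Fhod3 is the longest member (424.9 kb). All genes of at least 53.26 kb, the members' median length, had a median log2 ratio of CM4 over CM1 in each library. It was -0.94 in WT-Sham, -0.41 in WT-MI, -0.41 in KO-Sham and -0.65 in KO-MI. The part of gene length in the CM4 calls was not tested.

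The kinases Speg and Alpk3 were called higher after MI in CM4 of WT, with Speg at 80.9 CPM in WT-Sham, 166 in WT-MI, 174 in KO-Sham and 125 in KO-MI and Alpk3 at 68.3 CPM in WT-Sham, 138 in WT-MI, 160.2 in KO-Sham and 113 in KO-MI. For both genes WT-Sham was the lowest of the 4 libraries, so that they were also higher in KO-Sham over WT-Sham, at 1.1 (0.53 to 1.71) and 1.23 (0.62 to 1.89). These comparisons share WT-Sham, whose CM4 nuclei had the highest mitochondrial share (14.59%) and 12805 CPM of red blood cell markers, against 3538 to 8411 CPM in CM4 of the other libraries. The part of these in the result was not tested. CM2 held 27 to 124 nuclei per library, and there Myom2 was called lower after MI in both genotypes, 1 of 34 members beside 1.79% of all genes, at -1.64 (-2.51 to -0.80) in WT and -0.85 (-1.62 to -0.13) in KO.

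The last comparisons set the libraries labelled KO beside those labelled WT. After MI, no member of 41 was called in CM1, and the ratios of KO-MI over WT-MI ran from -0.23 (Myom2) to 0.33 (Des). Of all 12910 genes, 1.78% were called higher and 1.63% lower. The median of the members was 0.01 above that of all genes. Ttn stood at -0.15 (-0.16 to -0.13), Tpm1 at 0.31 (0.28 to 0.34), Pdlim7 at 0.32 (0.11 to 0.52) and Des at 0.33 (0.23 to 0.42), and these intervals all lay inside 1.5-fold. In CM5 no member of 41 was called either, beside 3.46% of all genes higher and 1.33% lower, and the ratios ran from -0.42 (Fhl2) to 0.45 (Lmod3).

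In CM4, Pdlim3 was higher in KO-MI than in WT-MI by 1.14 (0.18 to 2.16), and Fhod3, Smyd1 and Ankrd23 were lower, at -0.96 (-1.19 to -0.73), -0.69 (-1.31 to -0.09) and -1.43 (-2.61 to -0.37). That is 1 of 40 members higher, beside 5.17% of all genes, and 3 of 40 lower, beside 7.7%. The underlying levels were 35.6 and 78.6 CPM for Pdlim3, 1291 and 663 CPM for Fhod3, 169 and 105 CPM for Smyd1 and 78.3 and 29.1 CPM for Ankrd23 in WT-MI and KO-MI. Atrial markers summed to 1199 CPM in CM4 of KO-MI (4 of 5 with UMIs, Bmp10 at 0) and to 63.2 to 104 CPM in CM4 of the other libraries. Their part in these differences, and that of gene length, was not tested.

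After Sham surgery, Csrp3, Tpm1 and Tpm2 were higher in KO than in WT in CM1, 3 of 41 members beside 4.94% of all genes, and no member was lower, beside 3.43%. The median of all genes in this pair was -0.11 (log2), and another scaling moved each ratio by 0.12, so values relative to that median are given too. Csrp3 was at 0.83 (0.75 to 0.92), or 0.95 relative to the median gene, Tpm1 at 0.63 (0.60 to 0.67), or 0.75, and Tpm2 at 0.67 (0.26 to 1.1), or 0.79. Des, at 0.51 (0.39 to 0.63) or 0.63, was not called, but passed the limit relative to the median gene, under the other scaling and in thinned nuclei. The call on Tpm2 was lost, at 0.55 on the log2 scale, when nuclei were thinned to 1000 UMIs. Among the comparison genes, Myl2 (0.68), Myl3 (0.86), Tnni3 (0.85), Actc1 (0.94) and Acta1 (1.17) were higher as well, 5 of 11. In the other populations, CM5 had Csrp3 higher at 0.70 (0.42 to 0.97) (1 of 40 members, beside 3.79% of all genes) and none lower (4.87%), while CM4 had Mypn, Palld, Speg and Alpk3 higher (4 of 40, beside 8.06%) and none lower (3.82%). In CM4 the ratio of Csrp3 was -0.05 (-0.23 to 0.13) and that of Tpm1 -0.30 (-0.37 to -0.23).

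The Sham difference moved with the length of the annotated gene. The members were divided at their median length, 53.26 kb. The shorter members had a median ratio of 0.13 for KO-Sham over WT-Sham, with 17 of 20 above the median of all genes, and the longer members had a median of -0.23, with 2 of 21 above it. All shorter genes had a median of -0.05 and all longer genes of -0.22, so the longer members stood close to other long genes. Pearson's r between log10 length and log2 ratio was -0.64 across the 41 genes, which share the libraries and are not independent. For WT-MI over WT-Sham r was -0.43, with medians of 0.30 for the shorter and -0.02 for the longer members. All shorter and all longer genes had medians of -0.08 and -0.06 in that pair, so they differed little by length. For KO-MI over KO-Sham r was -0.16, with medians of -0.007 and 0.12 for all shorter and all longer genes. For KO-MI over WT-MI r was -0.34. KO-Sham was also the library with the fewest UMIs per CM1 nucleus, the highest mitochondrial share and the highest sum of endothelial markers in CM1, most of it Fabp4. The part of these in the Sham result was not tested.

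**Figure D4:**
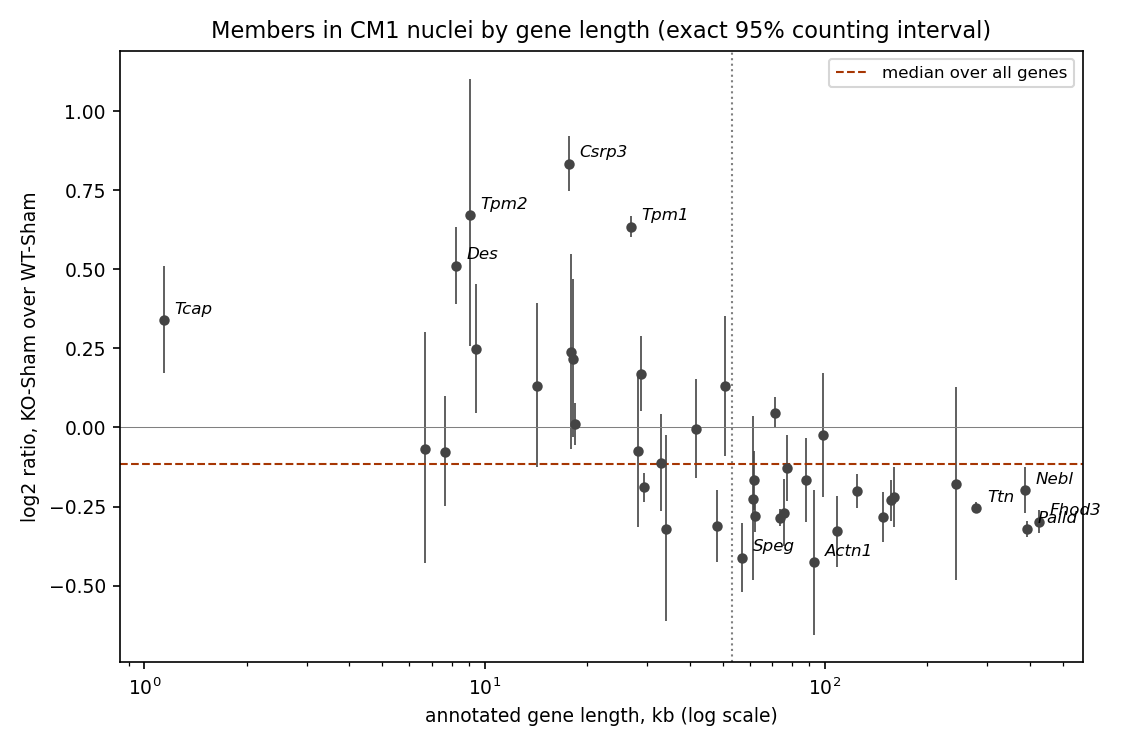
Log2 ratio of KO-Sham over WT-Sham in CM1 nuclei (y axis) against annotated gene length in kb (x axis, log scale) for 41 members, with exact 95% counting intervals, the median of all genes as a dashed line and the members' median length as a dotted line. Csrp3, Tpm1, Tpm2 and Des lie high among the shorter genes, and all but 2 of the longer genes lie below the dashed line.

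Within a library, the members also differed between populations, which is a description since the same genes were used to sort the nuclei. In CM4, 6 of 41 members stood above CM1 beyond counting error in all 4 libraries (Tcap, Csrp3, Capzb, Tpm1, Tpm4 and Des), beside 8.55% of all genes, and 15 stood below it, beside 8.14% (Ttn, Myom1, Ldb3, Mypn, Palld, Nexn, Pdlim5, Synpo2, Nebl, Cap2, Fhod3, Speg, Alpk3, Mylk3 and Fhl2). Des ranged from 0.82 to 1.78 on the log2 scale over the libraries, Csrp3 from 0.62 to 1.82 and Tcap, the titin cap of the Z-disc, from 0.65 to 1.5. Palld ranged from -1.72 to -0.80, Fhod3 from -1.64 to -0.68 and Ttn from -1.03 to -0.64. The shorter members had medians of 0.09 to 0.71 in CM4 over CM1 and the longer members of -0.86 to -0.49, beside 0.10 to 0.26 and -0.94 to -0.41 for all shorter and longer genes.

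In CM5, Csrp3, Pdlim3, Pdlim5, Synpo2l, Tpm1 and Ankrd23 stood above CM1 in all 4 libraries, 6 of 41 members beside 0.854% of all genes, and Palld, Synpo2, Fhod3, Mylk3 and Fhl2 below, 5 of 41 beside 1.39%. Intervals are narrower for genes with more UMIs, so these shares also depend on a gene's UMIs. Pdlim3 ranged from 0.94 to 1.56 and Ankrd23 from 0.83 to 1.39 on the log2 scale. Actn1 ranged from -0.37 to 2.46, with the MI libraries at 2.46 (WT) and 2.37 (KO) and the Sham libraries at -0.37 (WT, from 17 UMIs) and 0.65 (KO). Fhl1 had a like spread, from -0.43 to 2.24. In CM2 no member stood above CM1 in all 4 libraries, beside 2.73% of all genes, and Ttn, Myom1, Mybpc3, Ldb3, Tpm1 and Fhl2 stood below, 6 of 41 beside 0.305%.

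**Figure D5:**
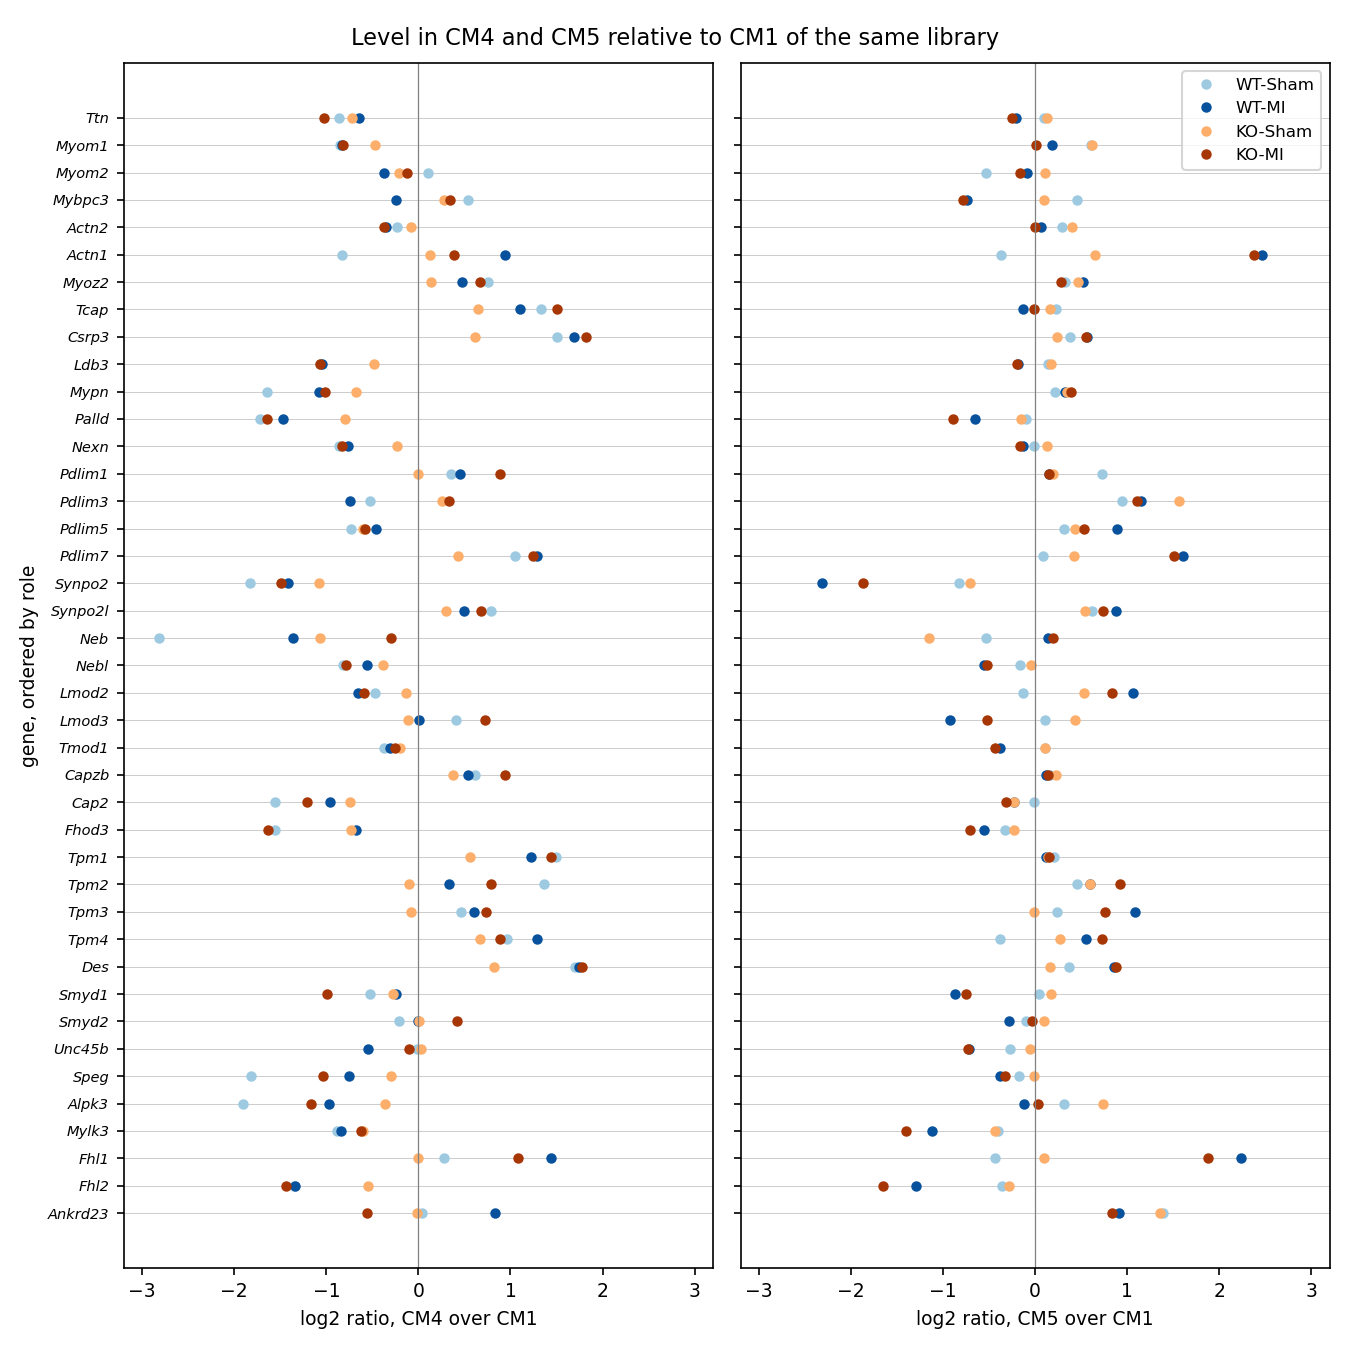
Log2 ratio of the level in CM4 (left) and CM5 (right) over that in CM1 of the same library, for 41 members (rows, ordered by role), with 1 point per library. Tcap, Csrp3, Tpm1 and Des are right of 0 and Palld, Fhod3 and Synpo2 left of it in CM4, and in CM5 the MI points of Actn1 and Fhl1 lie far right of the Sham points.

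The counts of 25 of the 44 members are less certain because another annotated gene overlaps them and the use of strand in the counting is not stated. Among the members called in CM1 these are Myom1, Myom2, Actn1, Pdlim7, Neb, Des, Mylk3, Fhl1 and Ankrd23. Myoz2, Palld, Synpo2, Fhod3, Nebl, Tpm4, Smyd1, Speg, Alpk3 and Fhl2, which were called in CM4 or CM5, are overlapped as well.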

How the data were processed

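Single-nucleus RNA-seq libraries were prepared by the authors with a 10x Genomics 3′ kit, for which the labels and the methods name different versions. The authors deposited UMI counts per gene and nucleus with no normalization. Cell Ranger (version not given in the sources used here) had aligned the reads, per the labels and methods, to the mm10/GRCm38 pre-mRNA reference, which counts introns. Doublets called by Scrublet, nuclei with few or many detected genes and nuclei of other cell types had been removed, and populations were named with Seurat 3. The deposited percent of mitochondrial UMIs, population and library name were read from the table of nuclei, of which 11 columns were not used. The deposited nuclei held 537 to 2499 genes, and column sums equalled the deposited totals in 100% of nuclei.

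UMIs were summed per library and population, with totals of 4151418 to 7335268 UMIs in CM1, and expressed as CPM with exact Poisson intervals. Log2 ratios carry the exact conditional binomial interval (95%, counting error only). Genes needed 20 UMIs over both sums, calls needed 1.5-fold and an interval that excluded no change, and a gene at 0 would have been set to a floor of 3 UMIs. With 1 library per group no paired or replicate test was possible. Members and lists were chosen with earlier results of these data known. All members are accounted for, and values in each library are given for members called in CM1 and for the member with most UMIs in each role group. Other genes come from 2 comparison lists (11 and 35 genes in the matrix) and from marker lists of cell types. Positions are from GENCODE M21 on GRCm38, which held 98.0% of symbols and all members. TMM factors came from edgeR 4.0.16 in R 4.3.3 and all else from Python 3.11.15 with numpy 2.4.6, scipy 1.17.1, pandas 2.3.3 and matplotlib 3.10.9. A further promoter match is not reported here. The steps were tested on simulated counts. Alternatives were TMM, totals without mitochondrial genes and Malat1, other UMI minimums, equal weight per nucleus, thinning, other sets of nuclei, a 2-fold limit and, added after the data were seen, centring on the median gene, leaving out the top nuclei of a gene, both MI against both Sham libraries, and nuclei with few UMIs of other cells.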

Additional observations from a re-analysis of the deposited data

Results flagged for a closer look

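In CM1 nuclei, 5 members had log2 ratios of MI over Sham of opposite sign in the WT and KO libraries, with both intervals excluding 0, beside 1.43% of all genes. These 5 had 10764 to 104452 UMIs over CM1, and more UMIs make narrower intervals, so the share also depends on a gene's UMIs. The difference between genotypes was not tested, since there is 1 library per group, and each pair of ratios rests on 4 libraries. Csrp3 was at 0.38 in WT and -0.27 in KO, the widest of these gaps, and KO-Sham held its highest level (622 CPM) and WT-Sham its lowest (349 CPM). Tpm1 was at 0.27 in WT and -0.051 in KO, with the same order of the Sham libraries. Palld was at -0.13 in WT and 0.15 in KO, Cap2 at -0.11 and 0.20, and Fhod3 at -0.24 and 0.050. For Cap2 and Fhod3 the result depends on the scaling. TMM moved the median of all genes from -0.07 to 0.002 in WT and from 0.03 to -0.03 in KO. Such a shift takes Fhod3 in KO below 0 and the interval of Cap2 in WT across 0. None of the 10 ratios passed 1.5-fold. Csrp3 (17.6 kb) and Tpm1 (26.8 kb) are shorter than the members' median length of 53.26 kb. Palld (391.3 kb), Cap2 (148.4 kb) and Fhod3 (424.9 kb) are longer. In KO-MI over KO-Sham, all shorter genes had a median of -0.007 and all longer genes of 0.12. In WT-MI over WT-Sham these were -0.08 and -0.06. The part of gene length and of the quality of KO-Sham in these signs was not tested.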

How the results depend on the processing

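The 12 summary results of CM1 (the members' median against all genes and the counts higher and lower in each comparison) stayed close to their main value in 115 of 124 alternative values. TMM and totals without mitochondrial genes and Malat1 cannot change the members' median against all genes, so their agreement there was fixed in advance and is included in the 115. With all nuclei in place of CM1, 11 members were higher in WT-MI over WT-Sham and 1 in KO-Sham over WT-Sham, with Tpm1 and Tpm2 no longer called and other populations included by construction. With a limit of 2-fold, the counts higher and lower after MI were 1 and 1 in WT and 3 and 1 in KO, and 0 were higher in KO-Sham over WT-Sham. With nuclei thinned to 1000 UMIs, the members' median in KO-Sham over WT-Sham was 0.052 relative to that of all genes, in place of -0.052, and 1 member, Actn1, was lower. The cause of the thinned values was not tested. None of the 184 alternative values of the 23 called ratios changed sign, and 159 lay inside the interval of the main value. TMM moved ratios by at most 0.12 and centring by the median of all genes, so neither could turn the sign of a called ratio. Single calls were lost for Mylk3 in WT under TMM (-0.56) or centring (-0.57), for Actn1 in WT (0.49) when thinned, and for Tpm2 in the Sham pair when thinned (0.55) or in nuclei with few UMIs of other cells (0.59). The planned set of nuclei without any UMI of other cell types left 0 nuclei in 3 libraries and 2 in KO-Sham, and with red blood cell markers set aside 3 nuclei in 3 libraries and 20 in KO-Sham, so neither gave a value. No paired analysis was possible because each group has 1 library. Low UMI sums limit Myom3, Myot and Ankrd2 in CM1.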
